A study of Mus musculus with 2 samples.

Results

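The nuclear-encoded subunits of oxidative phosphorylation (OXPHOS) are the proteins of respiratory complexes I to IV and of the ATP synthase (complex V) whose genes lie on nuclear chromosomes. They were chosen by gene symbol, namely symbols that begin with Ndufa, Ndufb, Ndufc, Ndufs, Ndufv, Uqcr, Atp5 or Cox4 to Cox8, together with Sdha, Sdhb, Sdhc, Sdhd and Cyc1, and without Ndufa4l2, the Ndufaf assembly factors and symbols that contain -ps. This gave 85 of the 51826 listed genes, of which 37 belong to complex I, 4 to complex II, 9 to complex III, 18 to complex IV and 17 to complex V. No expression value entered the choice.

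RNA came from mouse embryonic stem (ES) cells labelled v6.5 by source and NBA1-19349 by strain, 2 names that the labels leave unreconciled. There were 2 libraries of total RNA, 1 from cells of genotype T29I and 1 from cells of genotype WT, and both carry the same source and strain labels. The series title places the mutation in PRSS1, a trypsinogen gene, and the sources used here do not say whether the T29I cells were a clone or a pool. With 1 library per genotype there is no replicate error and no test, so higher and lower describe these 2 libraries. Genotype, clone, culture and library preparation cannot be told apart.

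Complex I takes electrons from NADH and complex II takes them from succinate, and both pass them to ubiquinone. Complex III moves them on to cytochrome c, and complex IV hands them to oxygen. Complexes I, III and IV pump protons out of the mitochondrial matrix, and complex V lets the protons flow back to make ATP. All of these enzymes apart from complex II combine nuclear-encoded subunits with subunits encoded by mitochondrial DNA, and mouse ES cells are known to draw on both glycolysis and respiration.

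The values are TPM, a length-scaled abundance in which the reads of a gene are divided by its length and scaled so that each library sums to 1000000. Prss1 was listed at 0 in both libraries, so its level does not check the genotype labels. The estimated depth was 15281662 reads in the T29I library and 16910001 reads in the WT library. The median gene averaging 1 TPM or more had a log2 ratio of -0.84, T29I over WT, across 12943 genes, and the 20 most abundant genes held 27.0% of the T29I library and 16.9% of the WT library. The 8 ES-cell markers, such as Pou5f1, summed to 7213 TPM in the T29I library and 10135 TPM in the WT library. Of these, 4 (50%) were lower and 1 (12.5%) higher by 2-fold or more, close to the 45.7% and 9.97% of all 12943 genes. The 8 trophoblast markers summed to 922 TPM in the T29I library and 121 TPM in the WT library, with 5 of the 8 higher by 2-fold or more, while 2 defining markers were near 0, with Cdx2 at 0.402 and 0.256 TPM and Elf5 at 0.103 and 0.0983 TPM in the T29I and WT libraries. The 5 erythroid markers summed to 1254 TPM in the T29I library and 0.473 TPM in the WT library, where the globin genes Hbb-bs, Hba-a1 and Hbb-bh1 were at 0, and Alas2 was at 0 in the T29I library. The 7 markers of fibroblast feeders summed to 160 TPM in the T29I library and 179 TPM in the WT library, and the 6 of primitive endoderm to 2.55 and 8.58 TPM. The part of these other cell types in the values below was not tested, and in bulk RNA fewer cells of a type and less RNA per cell cannot be told apart.

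Taken as a whole, the OXPHOS subunits held a similar share of the TPM as deposited in both libraries while the individual genes went in both directions. The 85 genes summed to 22736 TPM in the T29I library and 20352 TPM in the WT library, a ratio of 1.12. They made up 2.27% of all TPM in the T29I library and 2.04% in the WT library. The sums depend on the scale, and without the 20 most abundant genes of either library they were 32028 TPM in the T29I library and 25183 TPM in the WT library. Of the 85 genes, 82 averaged 1 TPM or more, and their median log2 ratio on the log2(TPM + 1) scale was 0.10, with a 95% binomial interval over genes of -0.16 to 0.33. The other 3 were Cox6a2 and Cox8b, listed at 0 in both libraries, and Cox7b2, at 1.40 TPM in the T29I library and 0.355 TPM in the WT library.

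Past 2-fold on the higher side in the T29I library were 11 of the 82 genes (13.4%), where 9.97% of all 12943 genes were, and on the lower side 15 (18.3%), where 45.7% of all genes were. The members' median therefore lay above the all-gene median of -0.84 as deposited. Subtracting the shift common to abundant genes (a median log2 ratio of -0.90 over 9375 genes averaging 5 TPM or more) gave a member median of 1.00, with 41 of 82 members higher by 2-fold or more against 26.0% of all genes and 3 (3.66%) 2-fold or more lower against 22.2%. When transcript length and GC content were also taken into account, with the principal coding transcript of each gene, the member median was 0.063 and that of all genes 0.057. On that scale 10 members (12.2%) were 2-fold or more higher, against 17.1% of all genes, and 6 (7.32%) 2-fold or more lower, against 15.3%. With the longest transcript in place of the principal one, 17 members (20.7%) were higher by 2-fold or more, against 17.6% of all genes, and 7 (8.54%) lower, against 15.5%. The position of the group relative to other genes thus changed with the scale.

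For most members the counting error of the ratio did not reach a ratio of 1, but for some it reached the 2-fold line. Estimated reads per member, among the 82, ran between 11 and 33034 in the T29I library and between 7 and 31676 in the WT library. The 95% counting interval of the ratio included 1 for 5 of the 82 members. Some members called past 2-fold had an interval that crossed that line. Examples are Cox4i2 (1.45 to 9.08) and Ndufb2 (1.85 to 2.47) on the higher side and Ndufa1 (0.405 to 0.551) on the lower. The interval covers counting error only and not the spread between cultures.

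**Figure D1:**
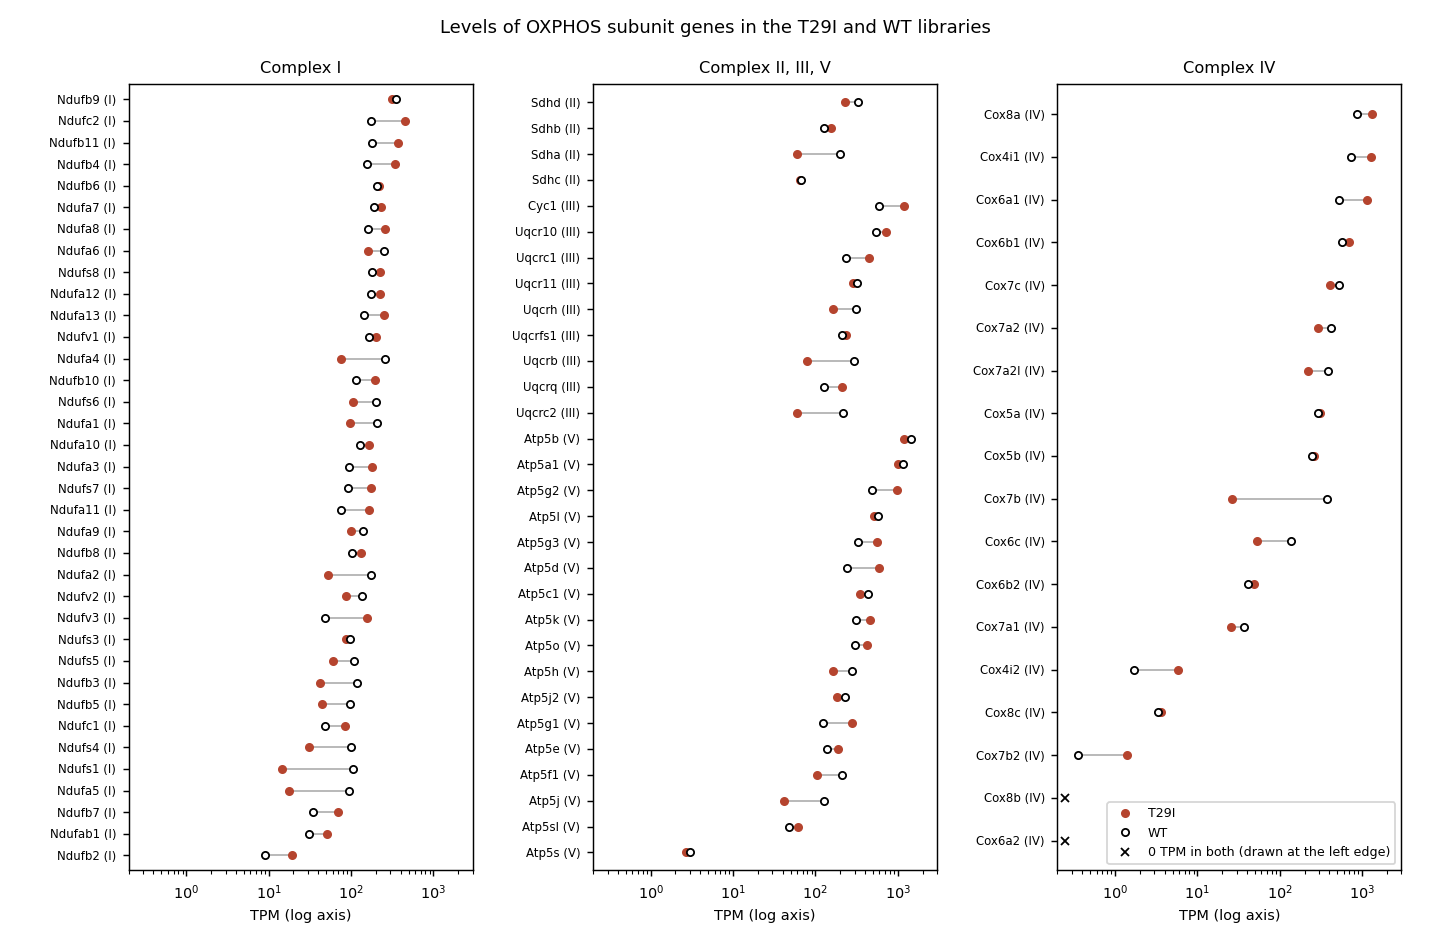
TPM of the OXPHOS subunit genes named at the left on a log axis in the T29I library (filled points) and the WT library (open circles), by complex, with genes ordered by their mean within each complex. Cox7b, at 26.1 TPM in the T29I library and 373 TPM in the WT library, has the widest gap, and Cox6a2 and Cox8b are at 0 in both libraries.

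Because the split between higher and lower members followed base composition, 4 short coding sequences are printed to show it, 2 from genes that were higher in the T29I library and 2 from genes that were lower. They come from the principal transcripts of GENCODE M21 on the GRCm38 build, 5′ to 3′ on the coding strand without the stop codon, with G and C in capitals. The genes of the higher pair lie at chr5:115345642-115348981 on the - strand (Cox6a1) and at chr19:7215153-7217616 on the - strand (Cox8a). Those of the lower pair lie at chrX:106015700-106022450 on the + strand (Cox7b) and at chr13:66900617-66905378 on the - strand (Uqcrb). The first 300 bases are printed where the coding part is longer, which is 336 bases in Cox6a1, 207 in Cox8a, 240 in Cox7b and 333 in Uqcrb. G and C make up 66.3% of the printed bases of Cox6a1, 65.2% of Cox8a, 47.5% of Cox7b and 42.7% of Uqcrb.
Cox6a1: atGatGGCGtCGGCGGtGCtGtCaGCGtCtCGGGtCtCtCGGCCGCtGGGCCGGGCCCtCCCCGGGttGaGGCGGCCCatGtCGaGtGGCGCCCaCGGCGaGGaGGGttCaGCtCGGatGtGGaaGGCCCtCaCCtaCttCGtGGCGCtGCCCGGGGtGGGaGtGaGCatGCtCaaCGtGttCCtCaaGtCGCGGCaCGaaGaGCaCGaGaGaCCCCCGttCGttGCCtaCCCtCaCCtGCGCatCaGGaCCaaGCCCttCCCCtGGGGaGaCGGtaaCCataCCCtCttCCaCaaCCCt
Cox8a: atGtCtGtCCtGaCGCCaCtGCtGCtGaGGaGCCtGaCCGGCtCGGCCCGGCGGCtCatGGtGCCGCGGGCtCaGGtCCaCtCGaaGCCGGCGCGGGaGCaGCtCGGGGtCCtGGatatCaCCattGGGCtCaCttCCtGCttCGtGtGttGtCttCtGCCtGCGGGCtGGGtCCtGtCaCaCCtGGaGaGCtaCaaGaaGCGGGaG
Cox7b: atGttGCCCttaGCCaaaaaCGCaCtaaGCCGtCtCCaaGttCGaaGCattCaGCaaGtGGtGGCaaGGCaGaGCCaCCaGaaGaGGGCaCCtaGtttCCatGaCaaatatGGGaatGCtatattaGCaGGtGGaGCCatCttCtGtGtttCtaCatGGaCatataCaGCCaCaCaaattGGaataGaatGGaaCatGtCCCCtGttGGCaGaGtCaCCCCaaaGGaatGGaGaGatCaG
Uqcrb: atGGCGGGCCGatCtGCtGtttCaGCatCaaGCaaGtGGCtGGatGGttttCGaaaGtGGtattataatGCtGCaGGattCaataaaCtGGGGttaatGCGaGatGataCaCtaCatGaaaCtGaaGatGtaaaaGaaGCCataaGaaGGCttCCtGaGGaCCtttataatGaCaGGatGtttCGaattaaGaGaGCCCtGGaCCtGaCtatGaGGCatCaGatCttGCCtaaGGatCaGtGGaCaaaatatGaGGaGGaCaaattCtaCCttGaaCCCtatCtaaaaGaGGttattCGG

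Cox6a1, a small subunit of complex IV, was at 1147 TPM in the T29I library and 523 TPM in the WT library. Its neighbour in the enzyme Cox8a was at 1334 TPM in the T29I library and 855 TPM in the WT library. Cox7b was at 26.1 TPM in the T29I library and 373 TPM in the WT library, and Uqcrb, a small subunit of complex III, at 79.8 and 297 TPM. The GC-rich pair was the higher in the T29I library and the AT-rich pair the lower.

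Across the 82 members, Spearman's rho between the log2 ratio and the GC content of the principal transcript was 0.68, and across 9100 protein-coding genes averaging 5 TPM or more it was 0.58. The GC content of the coding part gave 0.64 among members. Transcript length went with the ratio far less among members, with a rho of -0.11, than among the 9100 genes, with a rho of -0.50, and members' transcripts are short, with a median of 738.5 bases against 2577 for all genes. All points come from the same 2 libraries, and genes are not independent replicates. Members below the median GC content of 51.8% numbered 41 and summed to 8728 TPM in the T29I library and 11118 TPM in the WT library, with a median log2 ratio of -0.48. The 41 members at or above it summed to 14006 TPM in the T29I library and 9233 TPM in the WT library, with a median of 0.55. All 15 members that were 2-fold or more lower belonged to the AT-richer 41, and 10 of the 11 that were 2-fold or more higher belonged to the GC-richer 41. The exception was Ndufc2, with a GC content of 48.8%. The same split was not counted over all genes, whose ratios also rose with GC content, by the rho of 0.58 above.

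**Figure D2:**
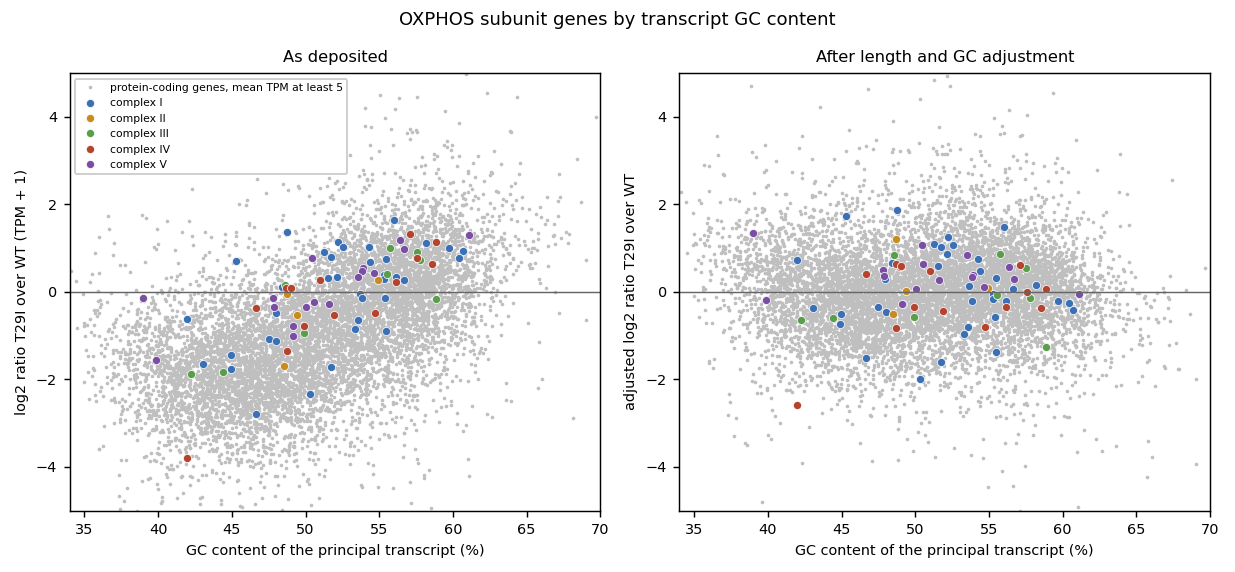
Log2 ratio of T29I over WT against GC content of the principal transcript (%), as deposited (left) and after the length and GC adjustment (right), for OXPHOS subunit genes coloured by complex and for protein-coding genes averaging 5 TPM or more (grey, the axes leave out a few). As deposited the members climb with GC content with a rho of 0.68, and after adjustment the rho is -0.02.

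Adjusting for length and GC content removes whatever follows them, true differences included. After adjustment by the principal transcript the members' rho with GC content was -0.02. Of the 11 higher members, 4 were still 2-fold or more higher and 10 still above 0. Of the 15 lower members, 4 were still 2-fold or more lower and all 15 below 0. The SD of the log2 ratios over members was 1.05 as deposited, where that of all genes was 1.42. After adjustment by the principal transcript, chosen after seeing the data, it was 0.81, where that of all genes was 1.15. With the longest transcript, as planned, the member SD was 1.03, where that of all genes was 1.16.

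Only 6 of the 26 members past 2-fold stayed past it under each of the 7 other settings of scale, pseudocount, adjustment and copies. Lower in the T29I library were Cox7b, Ndufs1 and Ndufa5, and higher were Ndufv3, Ndufc2 and Ndufb4. Apart from Cox7b, they all encode complex I subunits. For the 11 higher members only the length and GC adjustments dropped a call, and every other setting kept all 11. The same screen was not run over all genes, so no background share stands beside the 6. Complex I holds 37 of the 82 members averaging 1 TPM or more, with 6 of the 11 higher and 8 of the 15 lower ones.

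Complex I summed to 5667 TPM in the T29I library and 5163 TPM in the WT library, with a median log2 ratio of 0.29 over its 37 genes. On the higher side 6 (16.2%) passed 2-fold, where 9.97% of all genes did, and on the lower side 8 (21.6%), where 45.7% did. Above 0 were 21. Its 7 nuclear core subunits, which hold the flavin and the iron-sulphur clusters and carry electrons to ubiquinone, summed to 1007 TPM in the T29I library and 994 TPM in the WT library, with a median of -0.04. Within this conserved core the ratios ran between -2.79 for Ndufs1 and 0.93 for Ndufs7.

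Ndufs1 (ENSMUSG00000025968, chr1:63143596-63176833, - strand) encodes the largest of these core subunits, which carries iron-sulphur clusters in the matrix arm. It was at 14.4 TPM in the T29I library and 105 TPM in the WT library, 7.30-fold lower, with a log2 ratio of -2.79 and 768 and 4405 estimated reads. With adjustment by the principal transcript its log2 ratio was -1.52. On the opposite strand it overlaps Eef1b2, a translation factor gene at 941 TPM in the T29I library and 1236 TPM in the WT library. The sources used here do not say whether reads were counted by strand, so reads of overlapping partners may not be told apart.

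The other core genes differed less. Ndufv1, which binds NADH and the flavin, was at 203 TPM in the T29I library and 167 TPM in the WT library. Ndufv2, an iron-sulphur protein beside Ndufv1, was at 86.9 TPM in the T29I library and 134 TPM in the WT library. The electron path of complex I therefore held 1 subunit past 2-fold, Ndufs1, and 6 within it.

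The other 30 complex I genes encode accessory subunits, which wrap the core and stabilise it, with Ndufa4 counted here by its symbol. They summed to 4660 TPM in the T29I library and 4169 TPM in the WT library, with a median log2 ratio of 0.33. By 2-fold or more 6 (20%) were higher and 7 (23.3%) lower, against 9.97% and 45.7% of all genes. Ndufv3 (ENSMUSG00000024038, chr17:31520115-31531331, + strand), an accessory subunit at the NADH end of the enzyme, was at 156 TPM in the T29I library and 48.9 TPM in the WT library, 3.18-fold higher, with a log2 ratio of 1.65 and 1.49 after adjustment. Ndufc2 (ENSMUSG00000030647, chr7:97400003-97407802, + strand), a subunit of the membrane arm, was at 450 TPM in the T29I library and 174 TPM in the WT library, a log2 ratio of 1.37. Ndufb4 (ENSMUSG00000022820, chr16:37647170-37654453, - strand), also in the membrane arm, was at 340.0 TPM in the T29I library and 155 TPM in the WT library, a log2 ratio of 1.13.

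Other subunits of the membrane arm lay on both sides of 0. Ndufb11 was at 367 TPM in the T29I library and 181 TPM in the WT library, and Ndufa11 at 164 and 75.4 TPM. Ndufb2 was at 19.2 TPM in the T29I library and 9.0 TPM in the WT library. These 3 passed 2-fold on the higher side as deposited. On the lower side Ndufb3 was at 42.3 TPM in the T29I library and 117 TPM in the WT library, a log2 ratio of -1.45. Ndufb5 was at 44.5 TPM in the T29I library and 97.9 TPM in the WT library, and Ndufa1 at 98.3 and 208 TPM, with log2 ratios of -1.12 and -1.07. Ndufb9, which had the highest mean of both libraries in complex I as deposited, was at 316 TPM in the T29I library and 348 TPM in the WT library.

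Ndufa5 (ENSMUSG00000023089, chr6:24518666-24528013, - strand), an accessory subunit of the matrix arm, was at 17.7 TPM in the T29I library and 94.1 TPM in the WT library. That is 5.30-fold lower, with a log2 ratio of -2.34 and -1.99 after adjustment. Ndufa2, another matrix-arm subunit, was at 52.1 TPM in the T29I library and 173 TPM in the WT library, a log2 ratio of -1.71. Its opposite-strand neighbour Tmco6 was at 47.2 TPM in the T29I library and 21.8 TPM in the WT library. Ndufs4, whose loss in mice and people gives a Leigh-like encephalopathy, was at 30.7 TPM in the T29I library and 98.7 TPM in the WT library, a log2 ratio of -1.65 as deposited and -0.38 after adjustment.

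Ndufa4, named as a complex I gene and later assigned to complex IV, was at 74.9 TPM in the T29I library and 257 TPM in the WT library, a log2 ratio of -1.76. After adjustment it was -0.74. With Ndufa4 counted in complex IV, the medians of complexes I and IV moved by less than the spread among members.

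Complex II, succinate dehydrogenase, is encoded wholly in the nucleus and is also an enzyme of the TCA cycle. Its 4 genes summed to 508 TPM in the T29I library and 725 TPM in the WT library. Sdha, the flavoprotein that oxidises succinate, was at 59.9 TPM in the T29I library and 198 TPM in the WT library, a log2 ratio of -1.71, and -0.51 after adjustment. Sdhb, the iron-sulphur subunit that is bound to Sdha, was at 154 TPM in the T29I library and 127 TPM in the WT library. The membrane anchors Sdhc and Sdhd were at 65.1 and 229 TPM in the T29I library, against 67.4 and 333 TPM in the WT library. Sdha was the only complex II gene past 2-fold as deposited.

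Complex III summed to 3396 TPM in the T29I library and 2862 TPM in the WT library, with a median log2 ratio of 0.15 over 9 genes. Cyc1, the cytochrome c1 that hands electrons to cytochrome c, was at 1185 TPM in the T29I library and 588 TPM in the WT library, a log2 ratio of 1.01 that was 0.86 with adjustment by the principal transcript and -0.086 by the longest. The Rieske iron-sulphur protein Uqcrfs1 was at 234 TPM in the T29I library and 210.0 TPM in the WT library. The core proteins, which face the matrix as partners, differed in direction. Uqcrc1 was at 446 TPM in the T29I library and 237 TPM in the WT library, and Uqcrc2 was at 60.0 and 217 TPM, with log2 ratios of 0.91 and -1.84.

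The 5 small subunits of complex III summed to 1471 TPM in the T29I library and 1610 TPM in the WT library (ratio 0.914). Uqcrb had a log2 ratio of -1.88, from the levels given beside its sequence. Uqcrh, the acidic hinge protein near cytochrome c1, was at 165 TPM in the T29I library and 315 TPM in the WT library. Uqcrq was at 211 TPM in the T29I library and 126 TPM in the WT library. Uqcr10 was at 728 and 550 TPM, and Uqcr11 at 287 and 322 TPM, in the T29I and WT libraries. Only Uqcrb among these 5 passed 2-fold.

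Complex IV, cytochrome c oxidase, summed to 6093 TPM in the T29I library and 5147 TPM in the WT library. Over the 15 of its 18 genes averaging 1 TPM or more, the median log2 ratio was 0.09. By 2-fold or more 2 were higher and 2 lower (13.3% each, against 9.97% and 45.7% of all genes). Cox7b (ENSMUSG00000031231), a small subunit with a single membrane span, had the lowest ratio of all 85 members. Its levels, given beside its sequence, were 14.3-fold apart, with a 95% counting interval of the ratio of 0.0604 to 0.0806, and rested on 209 estimated reads in the T29I library and 2348 in the WT library. The log2 ratio was -3.79 as deposited and -2.58 after adjustment. Its 2 near-identical processed pseudogenes, Gm13771 and Gm19503, were listed at 0 in both libraries.

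Cox6c, the other complex IV gene past 2-fold lower, was at 52.4 TPM in the T29I library and 136 TPM in the WT library, a log2 ratio of -1.36. The next lowest, Cox7a2l, is not a structural subunit but a factor that joins complexes III and IV, and was at 222 TPM in the T29I library and 384 TPM in the WT library. Cox4i1, the general isoform of the subunit that regulates the enzyme, was at 1269 TPM in the T29I library and 742 TPM in the WT library. Cox6b1, which faces the intermembrane space, was at 689 and 572 TPM, and Cox7c at 409.7 and 527 TPM. Of the 5 complex IV genes with the highest means of both libraries, Cox6a1 passed 2-fold.

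Several complex IV subunits have a general isoform and a tissue-restricted one, and the general form made up nearly all of each pair in both libraries. Cox4i1 held 99.5% of the summed TPM of its pair in the T29I library and 99.8% in the WT library. Its partner Cox4i2, known from lung and from low oxygen, was at 5.76 TPM in the T29I library and 1.71 TPM in the WT library, a log2 ratio of 1.32. Cox6b1 held 93.4% in the T29I library and 93.3% in the WT library, and its partner Cox6b2, known from testis, was at 48.9 and 41.4 TPM. Cox7a2 held 91.8% of its pair in the T29I library, at 290 TPM, and 92.0% in the WT library, at 416 TPM. Its partner Cox7a1, the heart and muscle form, was at 25.7 TPM in the T29I library and 36.4 TPM in the WT library.

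Cox8a held 99.7% of its family in the T29I library and 99.6% in the WT library, with Cox8c, a testis form, at 3.64 and 3.36 TPM. The muscle forms Cox6a2 and Cox8b were listed at 0 in both. The Cox7b pair was the 1 whose make-up differed most, with Cox7b at 94.9% in the T29I library and 99.9% in the WT library. Its testis form Cox7b2 was below 2 TPM in both libraries, at the levels given above.

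**Figure D3:**
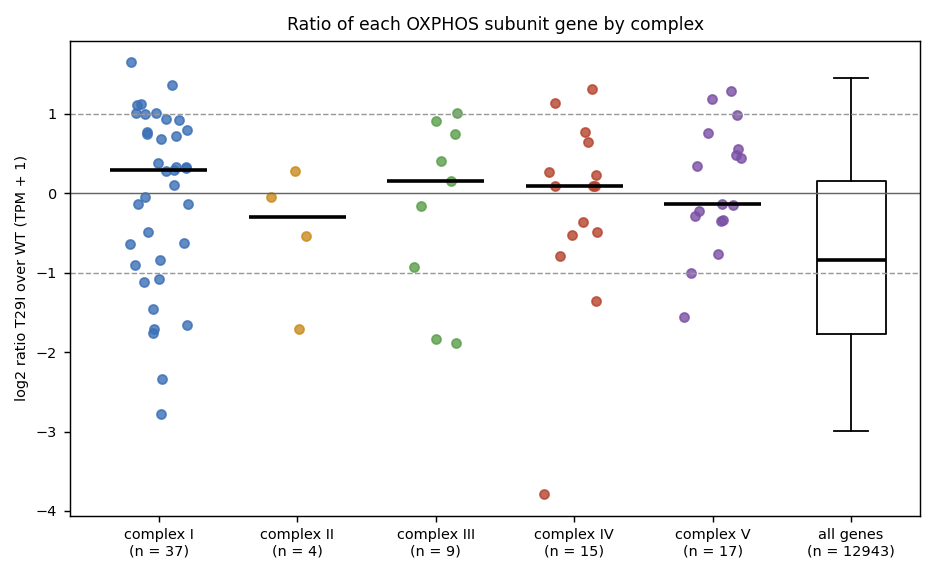
Log2 ratio of T29I over WT on the log2(TPM + 1) scale for each OXPHOS subunit gene averaging 1 TPM or more, by complex, with bars at the medians, dashed lines at 2-fold, and a box plot of all 12943 genes (box at the quartiles, whiskers at percentiles 5 and 95). The complex medians lie between -0.29 and 0.29, above the all-gene median of -0.84, and Cox7b is the lowest point.

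Complex V, the ATP synthase, summed to 7071 TPM in the T29I library and 6455 TPM in the WT library, with a median log2 ratio of -0.13 over 17 genes. Its catalytic head and central stalk (5 genes) summed to 3306 TPM in the T29I library and 3429 TPM in the WT library. Atp5b, the catalytic beta subunit, was at 1180 TPM in the T29I library and 1440 TPM in the WT library. Atp5a1, the alpha subunit, was at 1002 TPM in the T29I library and 1171 TPM in the WT library. Atp5d, the delta subunit of the stalk, was at 593 TPM in the T29I library and 242 TPM in the WT library. Its log2 ratio was 1.29 as deposited and -0.043 after adjustment by the principal transcript, whose GC content is 61.1%.

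The c-ring, the rotor that the proton flow turns, is encoded by 3 genes for the same mature protein, and all 3 were higher in the T29I library. They summed to 1809 TPM in the T29I library and 941 TPM in the WT library, a ratio of 1.92. Atp5g1 was at 281 TPM in the T29I library and 123 TPM in the WT library, a log2 ratio of 1.18. Atp5g2 was at 975 and 493 TPM in the T29I and WT libraries, a log2 ratio of 0.98 just inside 2-fold, and Atp5g3 at 553 and 325 TPM, a log2 ratio of 0.76. The shares of the 3 genes were close, with Atp5g1, Atp5g2 and Atp5g3 at 15.5%, 53.9% and 30.6% in the T29I library, against 13.1%, 52.4% and 34.6% in the WT library. With adjustment by the longest transcript Atp5g2 had a log2 ratio of -0.97, and by the principal transcript 0.30.

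The peripheral stalk, which holds the head still, had 4 genes that summed to 730 TPM in the T29I library and 918 TPM in the WT library. Atp5j (coupling factor F6) was at 42.1 TPM in the T29I library and 126 TPM in the WT library, a log2 ratio of -1.56. Adjusted by the principal transcript its log2 ratio was -0.18, and by the longest -1.42. Atp5f1 (subunit b) was at 104 TPM in the T29I library and 209 TPM in the WT library, at the edge of 2-fold with a log2 ratio of -1.0. Atp5h (subunit d) was at 165 and 282 TPM, while Atp5o, the protein that ties the stalk to the head, was at 419 and 301 TPM in the T29I and WT libraries. Of these 4 genes 2 passed 2-fold on the lower side, where 45.7% of all genes did. Atp5f1 passed it in 2 and Atp5j in 5 of the 7 other settings. Atp5j overlaps Gabpa on the opposite strand, which was at 11.7 TPM in the T29I library and 99.3 TPM in the WT library.

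The 3 genes of the membrane part summed to 1162 TPM in the T29I library and 1117 TPM in the WT library. Atp5l (subunit g) was at 517 TPM in the T29I library and 571 TPM in the WT library. Symbols that fit the rule without naming a structural subunit of complex V were Atp5s, at 2.67 and 3.02 TPM, and Atp5sl, at 61.4 and 48.0 TPM, in the T29I and WT libraries.

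Levels between genes depend on the length that TPM was divided by, which was taken as the merged exon length of each gene. That length gave whole reads for most values under 200 estimated reads, and larger values were not checked. For 21 members that length is at least 3 times the principal transcript. The extreme was Ndufb2, with 5628 merged exon bases and 455 in the principal transcript. Rescaled from estimated reads by the principal transcript, Atp5l was at 3671 TPM in the T29I library and 3970 TPM in the WT library, the highest of all members. On that scale Atp5g2 was at 2221 TPM in the T29I library and 1099 TPM in the WT library, and Atp5b at 1565 and 1869 TPM. As deposited, the members with the highest means of both libraries were Atp5b and Cox8a. Ratios between libraries share the length of a gene and do not depend on it in this way. Across the 82 members, Spearman's rho between the levels in the 2 libraries was 0.75, and across all 12943 genes it was 0.76.

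Promoters were examined for 3 motifs of factors known to act at respiratory genes, because members with a shared motif could be set side by side. A window of 300 bases at the start of the gene, from RefSeq on GRCm38.p6, was found for 67 of the 85 members. The windows below run 5′ to 3′ on the strand of the gene, with motif matches in capitals: NRF1 as CGCATGCG and GABPA as CCGGAAG, each on both strands. The first pair are members with the NRF1 letters, at chr5:115348909-115349208 on the - strand for Cox6a1, which also holds the GABPA letters in reverse, and at chr17:56717512-56717811 on the + strand for Ndufa11. The window of Cox7b, at chrX:106015450-106015749 on the + strand, is shown as that of the member with the lowest ratio. It holds none of the exact letters searched for the 3 motifs, and inexact matches were not counted.
Cox6a1 window: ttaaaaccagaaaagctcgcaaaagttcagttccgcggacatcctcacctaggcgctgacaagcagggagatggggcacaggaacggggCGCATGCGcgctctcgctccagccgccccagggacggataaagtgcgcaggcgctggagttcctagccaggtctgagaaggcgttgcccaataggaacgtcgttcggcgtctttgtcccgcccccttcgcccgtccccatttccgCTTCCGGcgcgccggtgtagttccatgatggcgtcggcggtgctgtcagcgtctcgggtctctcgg
Ndufa11 window: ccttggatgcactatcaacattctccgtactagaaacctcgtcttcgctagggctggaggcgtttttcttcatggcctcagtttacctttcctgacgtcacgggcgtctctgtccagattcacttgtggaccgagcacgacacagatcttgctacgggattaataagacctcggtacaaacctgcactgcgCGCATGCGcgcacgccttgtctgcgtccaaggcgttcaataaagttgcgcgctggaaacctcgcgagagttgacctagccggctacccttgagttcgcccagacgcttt
Cox7b window: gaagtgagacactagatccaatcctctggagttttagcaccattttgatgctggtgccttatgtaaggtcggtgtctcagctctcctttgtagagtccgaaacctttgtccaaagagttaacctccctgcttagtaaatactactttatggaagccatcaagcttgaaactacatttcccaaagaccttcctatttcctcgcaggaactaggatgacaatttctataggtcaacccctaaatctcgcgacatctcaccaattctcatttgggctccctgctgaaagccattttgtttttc

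The NRF1 letters were in the windows of 9 of 67 members (13.4%) and of 559 of 27025 genes (2.07%). Above 0 in log2 ratio were 6 of the 9, namely Ndufa8, Ndufa11, Uqcrc1, Cox6a1, Atp5g2 and Atp5k, and below 0 were Uqcr11, Atp5l and Atp5j. Their median log2 ratio was 0.69, with a range of -1.56 to 1.13. The transcript of Atp5j, the lowest of the 9, has a GC content of 39.9%, and that of Cox6a1, the highest, has 58.8%. Among the 56 other members with a window and an average of 1 TPM or more, the median was 0.19 and 32 were above 0. The GABPA letters were in 16 members (23.9%) and in 9.93% of all genes, with a median log2 ratio of 0.19 among those members. The YY1 letters, AAGATGGC on both strands, were in 9 members (13.4%) and in 3.19% of all genes, with a median log2 ratio of -0.34. A match is a description of the letters and does not show binding.

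The members sit on many chromosomes, and 8 chromosomes hold at least 5 members averaging 1 TPM or more. On each of these the median of such members was above that of all its genes averaging 5 TPM or more. On chromosome 13 the member median was -1.28 over 6 genes, where that of 348 such genes was -1.43. Its members Uqcrb, Sdha and Ndufs4 have the values given above. On chromosome 17 the member median was 0.52 over 6 genes, where that of 516 genes averaging 5 TPM or more was -0.56.

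The 13 subunits encoded by mitochondrial DNA, which are partners of the nuclear subunits in complexes I, III, IV and V, summed to 173390 TPM in the T29I library and 107440 TPM in the WT library. Their ratios went in both directions, with a median log2 ratio of -0.49. By 2-fold or more 3 (23.1%) were higher and 1 (7.69%) lower, against 9.97% and 45.7% of all genes. The median was 0.41 relative to the shift, 1.03 adjusted by the longest transcript and 1.08 by the principal transcript. On the last scale 7 (53.8%) were higher and 0 lower by 2-fold or more, against 17.1% and 15.3% of all genes. They ran between mt-Nd4l, at 520 TPM in the T29I library and 2481 TPM in the WT library, and mt-Nd3, at 11758 and 3384 TPM. The higher sum came from abundant genes such as mt-Co3, at 39428 TPM in the T29I library and 11592 TPM in the WT library. The nuclear subunits had a sum ratio of 1.12 and these 13 a sum ratio of 1.61.

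Assembly factors build the complexes without staying in them. Those of complex I (15 genes) had a median log2 ratio of -0.96, where that of all genes was -0.84. By 2-fold or more 2 were higher (13.3%, against 9.97% of all genes) and 7 lower (46.7%, close to the 45.7% of all genes). Among them Acad9 was at 7.04 TPM in the T29I library and 45.6 TPM in the WT library, and Ndufaf8 at 84.4 and 34.9 TPM. Those of complex II (4 genes) had a median of -0.86, between Sdhaf2, at 8.56 and 31.9 TPM, and Sdhaf1, at 13.8 and 7.27 TPM, in the T29I and WT libraries. Those of complex III (6 genes) had a median of 0.18, between Ttc19, at 3.98 and 12.9 TPM, and Uqcc2, at 412 and 149 TPM. The complex I structural genes, at 0.29, and their assembly factors thus had medians on opposite sides of 0, and after adjustment by the principal transcript these were -0.04 and 0.19.

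Complex IV assembly had a median of 0.33 over 20 genes averaging 1 TPM or more. It had 3 genes higher (15%, against 9.97% of all genes) and 4 lower (20%, against 45.7%) by 2-fold or more. It ran between Lrpprc, which keeps mitochondrial mRNAs stable, at 8.15 TPM in the T29I library and 66.7 TPM in the WT library, and Pet100, at 49.8 and 17.2 TPM. The 6 genes of complex V assembly and inhibition had a median of -0.75, between Atpaf1, at 8.56 TPM in the T29I library and 33.6 TPM in the WT library, and Usmg5, at 909 and 538 TPM. The 19 genes of the electron carrier list, which holds ubiquinone synthesis, cytochrome c and enzymes that feed electrons to ubiquinone, such as Etfdh and Dhodh, had a median of -0.16, between Pdss1, at 1.14 TPM in the T29I library and 14.8 TPM in the WT library, and Coq8b, at 26.4 and 8.33 TPM.

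Regulators of respiratory genes had the lowest median of the 12 lists. Of 19 averaging 1 TPM or more, 13 were lower and 0 higher by 2-fold or more, where 45.7% of all genes were lower, and the median log2 ratio was -1.36. They ran between Gabpb2, a partner of Gabpa, at 0.470 TPM in the T29I library and 20.9 TPM in the WT library, and Esrra, an orphan nuclear receptor, at 26.4 and 13.6 TPM. After adjustment by the principal transcript the median was -0.35. On that scale 3 were 2-fold or more lower (15.8%, against 15.3% of all genes) and 1 higher (5.26%, against 17.1%).

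The 18 genes of the TCA cycle and its entry had a median of -0.66, with 7 lower (38.9%, against 45.7% of all genes) and 0 higher by 2-fold or more, between Pdha1, at 48.4 TPM in the T29I library and 235 TPM in the WT library, and Suclg1, at 60.9 and 33.6 TPM. After adjustment by the principal transcript the median was 0.36 and 0 were 2-fold or more lower. Genes of protein import and cristae (35) had a median of -0.0060, between Timm21, at 3.45 TPM in the T29I library and 53.0 TPM in the WT library, and Chchd6, at 37.0 and 11.4 TPM.

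Ribosomal protein genes gave medians near that of the members. The 78 mitochondrial ones had a median of 0.16, between Mrpl50, at 14.6 TPM in the T29I library and 108 TPM in the WT library, and Mrps24, at 325 and 86.6 TPM. By 2-fold or more 10 were higher and 10 lower (12.8% each). The 87 cytosolic ones had a median of 0.09, between Rpl4, at 838 TPM in the T29I library and 4300 TPM in the WT library, and Rps27rt, at 212 and 53.1 TPM. Of these, 17 (19.5%) were higher and 16 (18.4%) lower. Among all genes 9.97% were higher and 45.7% lower. The spread of the log2 ratios over genes was also close, with an SD of 1.05 for OXPHOS subunits, 0.98 for mitochondrial and 1.03 for cytosolic ribosomal proteins. A median near 0, above that of all genes, was thus also seen in these ribosomal lists.

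**Figure D4:**
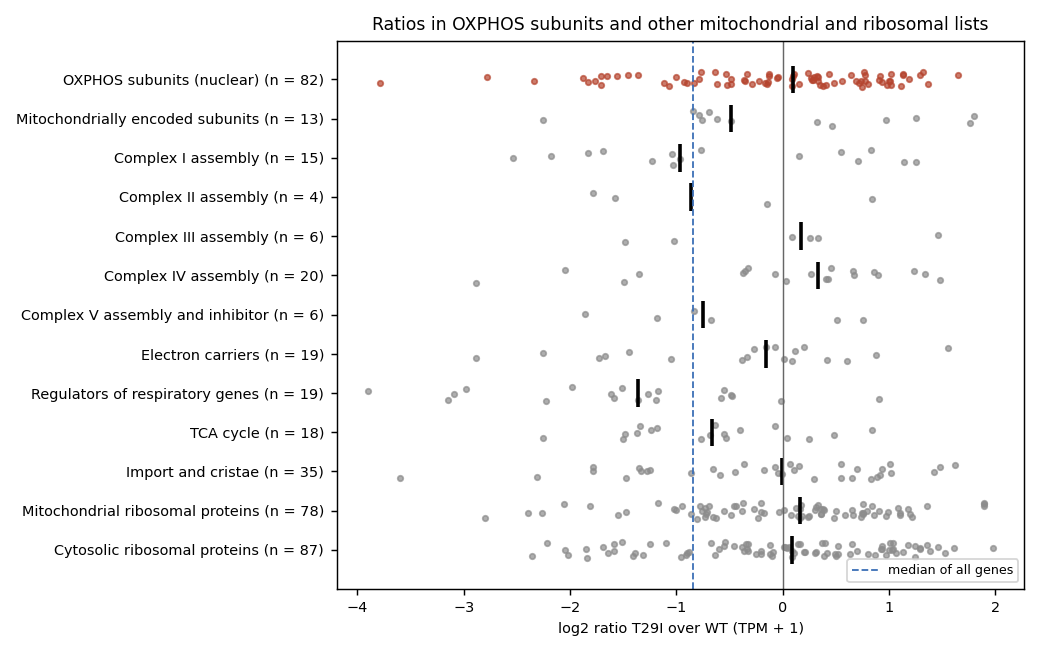
Log2 ratio of T29I over WT on the log2(TPM + 1) scale for OXPHOS subunit genes (red, top) and 12 lists of related genes (grey), 1 point per gene averaging 1 TPM or more, bars at the medians and a dashed line at the all-gene median of -0.84. OXPHOS subunits, at 0.10, lie close to mitochondrial and cytosolic ribosomal proteins, at 0.16 and 0.09, and regulators of respiratory genes lie lowest, at -1.36.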

How the data were processed

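The authors deposited 1 table of TPM per gene and library, and each column sums to 1000000. Isogen served for extraction and a stranded total-RNA kit with ribosomal RNA removal for the libraries, per the labels. The steps between reads and TPM (aligner, counting tool, build, annotation) were not given in the sources used here. Columns were assigned by the sample descriptions.

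Identifiers were matched to GENCODE M21 (GRCm38), with 51633 of 51826 and 85 of 85 members found. Log2 ratios are log2((T29I + 1)/(WT + 1)), which understates low genes, and calls are 2-fold among genes averaging 1 TPM or more. TPM times merged exon length gave whole reads within 0.05 for 83.8% of values under 200 reads in the T29I library and 86.3% in the WT library. These estimated reads gave 95% exact Poisson intervals, which cover counting error only, and no count model was fitted. The adjustment is what remains after a quadratic surface, with an interaction term, in log2 transcript length and GC content was fitted over 9100 protein-coding genes. It used the longest transcript as planned and, chosen after seeing the data, the principal (APPRIS) transcript, and was checked on simulated data. Near-identical copies came from BLAST 2.17.0 (at least 95% identity over 80% of the coding part), which gave 40 copies of 23 members, 3 of them above 0 and none above 1.69 TPM. Of the members, 20 overlap a gene averaging 1 TPM or more on the opposite strand and 3 on the same strand. Python 3.11.15, numpy 2.4.6, pandas 2.3.3, scipy 1.17.1 and matplotlib 3.10.9 were used.

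The members and lists were chosen with earlier results of these data known. Named were all members of complexes II and III, and in the others the 5 with the highest mean TPM, the 3 highest and 3 lowest ratios, those under 1 TPM and the isoform pairs. The highest and lowest of each list were named too. Further members named by their place in a complex, the printed sequences and overlapping neighbours were chosen after their values were seen. The motif letters were set after values were seen, and the NRF1 letters are the core of a longer form that was searched first. An item covered by this rule is not reported here. Alternatives were other scalings, pseudocounts, filters, adjustments and definitions of the members.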

Additional observations from a re-analysis of the deposited data

How the results depend on the processing

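No paired analysis was possible because each genotype has 1 library, and no library could be left out for the same reason. Relative to the median shift, 41 members were 2-fold or more higher and 3 lower, and the median log2 ratio was 1.00 over all members and 1.19, 0.60, 1.05, 0.98 and 0.76 in complexes I to V. That setting subtracts a negative constant, so every ratio moves up. Without the 20 most abundant genes of either library 17 members were 2-fold or more higher, and the sums were 32028 TPM in the T29I library and 25183 TPM in the WT library. The member median log2 ratio was then 0.29. The share of all genes past 2-fold was not counted on that scale, so the 17 have no background beside them. Without mitochondrial genes the sums were 27505 and 22801 TPM, without members that are not structural subunits 22450 and 19917 TPM, and scaled by principal transcript length, an alternative chosen after seeing the data, 30644 and 26942 TPM, in the T29I and WT libraries. Adjusted by the longest transcript, 17 members were 2-fold or more higher (17.6% of all genes were) and 7 lower (15.5% of all genes were), and adjusted by the principal transcript 6 were lower. Some signs turned, and the cause was not tested. The median of the TCA cycle list was 0.23 relative to the shift and 0.21 adjusted by the longest transcript. Adjusted that way, the log2 ratio was 0.60 for Atp5f1, -0.76 for Cox6a1 and -0.086 for Cyc1, and adjusted by the principal transcript it was -0.043 for Atp5d. Of the 11 higher and 15 lower members, the calls kept numbered 11 and 3 relative to the shift, 11 and 12 without the 20 most abundant genes, 11 and 13 without mitochondrial genes, 5 and 5 adjusted by the longest transcript and 4 and 4 by the principal transcript. A pseudocount of 0.1 and summing with near-identical copies kept all 26. Genes with few reads, such as Cox4i2, Cox8c and Atp5s, have wide counting intervals.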
